A study of Mus musculus with 14 samples.

Results

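The genes described here are the heat shock proteins, their DnaJ partners and the BAG cochaperones, as measured in testes of Glis3KO2 and wild-type (WT) mice. They were chosen by name: every probe that is not a control and whose gene name on the array begins with Dnaja, Dnajb or Dnajc, with Hsp followed by a digit or a letter from a to h, or with Bag and a digit. This gave 68 gene names out of 27962 on the array, with 132 probes out of 41174. The probe with the highest mean over the 4 groups stood for a gene with several, as 40 of the 68 had. Some names are older than those in use: Hsp110 is now Hsph1, Hspa9a is Hspa9 and Dnajb10 is Dnajb2. Hspc171 is now Tmem208, so it is a member by its former name and not a heat shock protein.

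The study profiled total RNA of whole testis to find what the loss of Glis3, a zinc finger transcription factor, does to spermatogenesis. There were 4 samples from 1-week Glis3KO2 mice and 4 from 1-week WT mice, and 3 from 4-week Glis3KO2 mice and 3 from 4-week WT mice. All were of the C57BL/6 strain, and none had been treated. The sample labels give the older mice as 4 weeks of age and the series text as 3 weeks, and the labels' age is used here. No further detail of the Glis3KO2 allele is given by the labels. The labels do not say whether samples of a group came from separate mice, so p-values measure only the spread between these samples.

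Chaperones bind unfolded stretches of other proteins and keep them from aggregating. Hsp70 proteins do this in cycles of ATP binding and hydrolysis, which DnaJ proteins (also called Hsp40) speed up and exchange factors such as the BAG proteins reset, and small heat shock proteins hold unfolded clients until Hsp70 can take them. Some members are made at all times, some are induced through heat shock factor 1 when proteins unfold, and the testis has a further set that is made by spermatocytes and spermatids during their normal development.

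Each sample was hybridised to 1 array, with Cy3 as the single dye. The share of spots well above background ran from 74.3% to 86.6% between arrays, and no spot of a member was saturated. At 1 week this share was 86.6%, 82.6%, 86.3% and 76.7% on WT replicates 1 to 4. On Glis3KO2 replicates 1 to 4 of that age it was 76.5%, 78.5%, 74.3% and 74.4%. The part of this imbalance in the 1-week differences was not tested. Levels are given as log2 signal relative to the 75th percentile of the array, so a value of 0 is that percentile and a difference of 1 is a doubling. Signals of different probes cannot be set against each other, because probes differ in how well they bind. Glis3 itself was well above background on none of the 4 1-week Glis3KO2 arrays and on all 4 of the 1-week WT arrays. It was at least 4.25-fold lower in Glis3KO2 than in WT testis, a bound, since the Glis3KO2 side is background. Glis3 was at background on all 6 arrays of 4 weeks, where it checks nothing. All 5 Sertoli cell markers and all 4 general germ cell markers looked at were well above background on every array. Arrays of 1 week lie on slides 1 to 3 and arrays of 4 weeks on slides 4 and 5, so age and slide cannot be told apart. Slide 3 carries only 1-week Glis3KO2 replicate 4 of these arrays, which was scanned on a different day from all others.

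At 4 weeks the chaperones of germ cells were lower in Glis3KO2 testis, while Hspb8, Hspb1, Hspa1a, Bag2, Dnajc5, Hsp90ab1, Hspd1 and Hspa8 were among those that were higher. These are results of the brightest probes. Hspb1 did not pass with the mean of all its probes, and the value of Hspa8 is uncertain, both as given below. Of the 67 members tested, 15 were higher and 33 lower in Glis3KO2 than in WT testis by limma at an adjusted p under 0.05. Among all 21338 genes tested, 69.2% were called, 35.1% higher and 34.1% lower, so the share of members called higher lay below that of the array and the share called lower above it. The median log2 difference was -0.34 over the members and 0.03 over all genes. The signals of the 2 genotypes did not overlap for 18 members that lay higher and 36 that lay lower, against 38.6% and 38.4% of all genes. At 1 week only 4 of 66 members were called, Dnajb8 and Hspb1 higher and Hspb3 and Hspa12a lower, where 10.0% of all genes were called (3.90% higher and 6.14% lower). The plot of all members shows both ages.

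**Figure D1:**
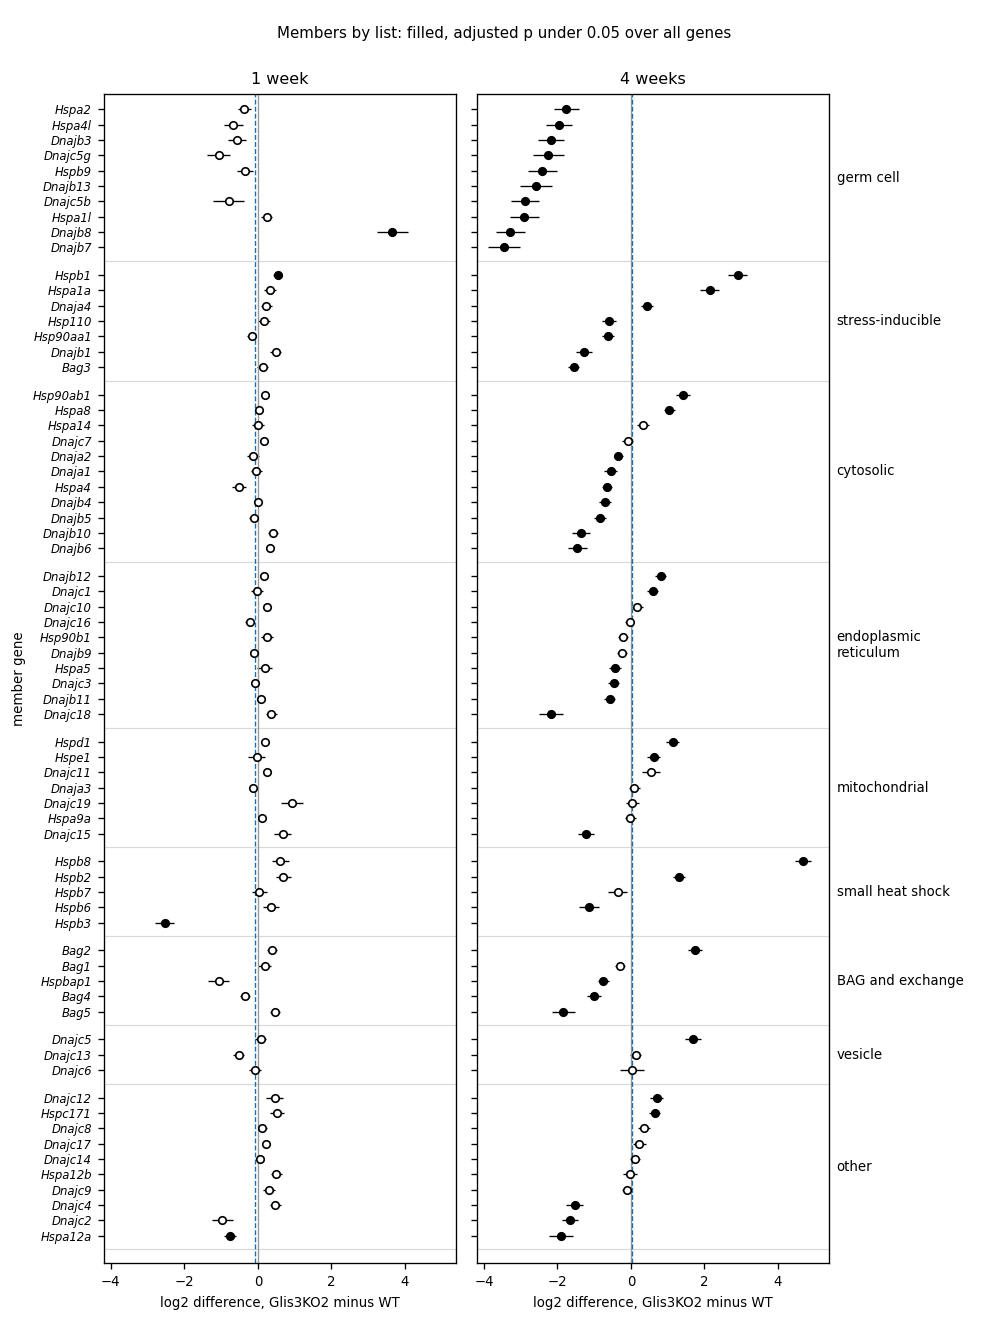
Log2 difference between Glis3KO2 and WT testis for the 68 members, by list, at 1 week (left) and at 4 weeks (right). Points are limma estimates and bars their SE, filled points are called at an adjusted p under 0.05 over all genes, the dashed line is the median of all genes tested, and a gene not tested at an age has no point. At 4 weeks all 10 germ cell chaperones lie left of 0, and Hspb8 lies farthest to the right at 4.68.

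The germ cell chaperones are 10 genes whose products are known from spermatocytes and spermatids. All 10 were lower in 4-week Glis3KO2 testis, by 1.75 to 3.45 on the log2 scale (median -2.50), where 34.1% of all genes were called lower. Hspa2, the Hsp70 of spermatocytes that is needed to complete meiosis, had log2 signals of 3.34, 3.73 and 4.74 in 4-week Glis3KO2 testes, against 5.72, 5.65 and 5.71 in WT testes. Every Glis3KO2 array lay below every WT array. The difference was -1.75 (SE 0.35, limma adjusted p = 0.0037). The Hspa2 probe lies on chromosome 12 (74364884 to 74364943, mm7).

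Hspa1l, an Hsp70 of spermatids, had log2 signals of -1.21, -2.26 and -0.91 in 4-week Glis3KO2 testes, against 1.01, 1.81 and 1.50 in WT testes. The groups did not overlap, and the difference was -2.90 (SE 0.38, limma adjusted p = 0.001). Hspa4l, a nucleotide exchange factor of the Hsp110 family that is abundant in testis, had 3.71, 3.96 and 5.06 in 4-week Glis3KO2 testes, against 6.07, 6.28 and 6.25 in WT testes. It was lower, with a log2 difference of -1.96 (SE 0.35, limma adjusted p = 0.0026), again with no overlap. Hspb9, a small heat shock protein of the testis, had 2.16, 2.42 and 3.71 in Glis3KO2 testes and 5.15, 5.24 and 5.15 in WT testes of this age, a 5.33-fold difference.

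Among the DnaJ genes of this list, Dnajb7 and Dnajb8, both known mainly from testis, were the lowest relative to WT. Dnajb7 had log2 signals of -1.0, -2.04 and -0.30 in 4-week Glis3KO2 testes, against 2.03, 2.64 and 2.34 in WT testes (log2 difference -3.45, SE 0.43, limma adjusted p = 0.00089). Dnajb8 had 0.83, -0.26 and 1.24 in Glis3KO2 testes, against 3.54, 4.18 and 3.93 in WT testes (log2 difference -3.28, SE 0.40, limma adjusted p = 0.00082). In neither gene did the groups overlap.

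Dnajb13, a protein of the sperm flagellum, had -0.88, -0.95 and 0.66 in 4-week Glis3KO2 testes and 2.07, 2.24 and 2.28 in WT testes. Dnajb3, a DnaJ protein of spermatids, had 3.61, 3.69 and 4.89 in Glis3KO2 testes and 6.10, 6.32 and 6.28 in WT testes. Both were called, with log2 differences of -2.59 and -2.17, and with no overlap. Dnajc5b and Dnajc5g, testis relatives of the cysteine string protein that guards vesicle fusion, were lower, with log2 differences of -2.88 and -2.24 (limma adjusted p = 0.0011 and 0.0031).

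The size of these differences varied between the 3 Glis3KO2 samples. Replicate 3 had the highest signal of the 3 for 10 of 10 germ cell chaperones, and its median distance to the WT mean was -1.50, against -2.95 and -2.96 in the other two. It was also the Glis3KO2 array nearest to WT for 31 of the 33 members called lower and for 15 of the 15 called higher. Within slide 4, which holds replicates 1 and 2, the differences of the 10 genes ran from -3.71 to -2.18, and within slide 5, which holds replicate 3, from -2.94 to -0.91. Without replicate 3 the median of the list was -3.00.

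**Figure D2:**
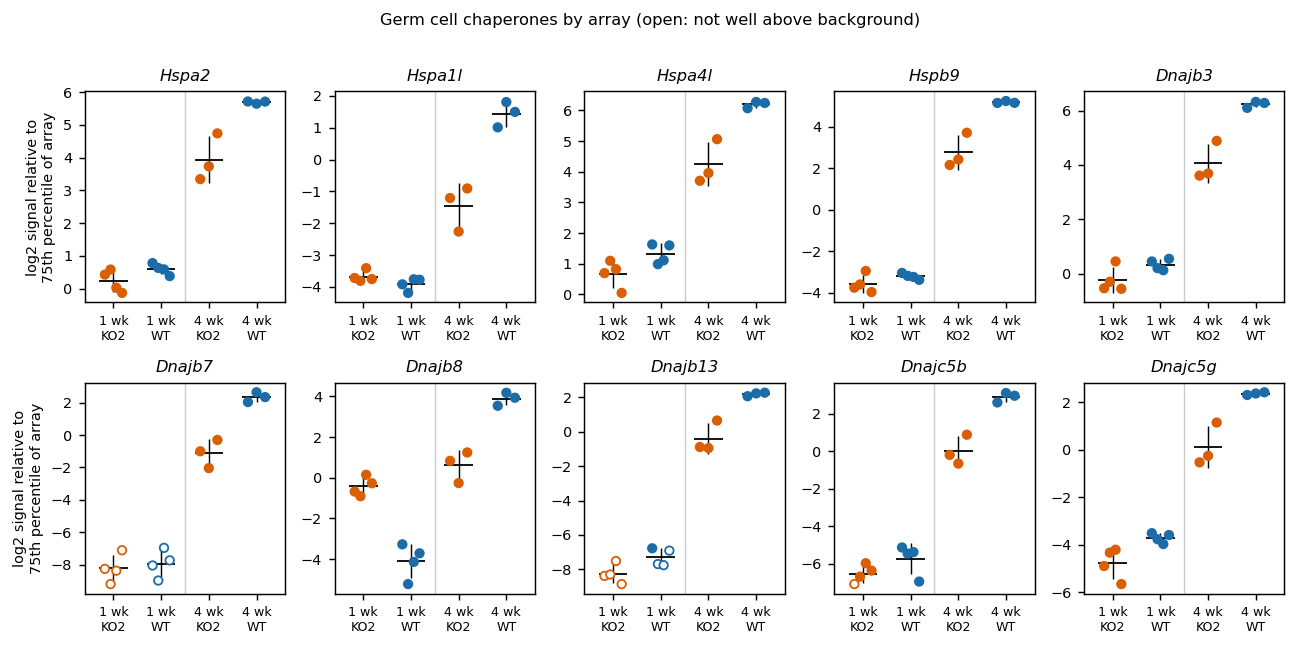
Log2 signal relative to the 75th percentile of the array (vertical axis) for the 10 germ cell chaperones on the 14 arrays, with Glis3KO2 arrays in orange, WT arrays in blue, horizontal bars for means and vertical bars for SD. Open points are not well above background; at 4 weeks each Glis3KO2 group lies below its WT group, and at 1 week Dnajb8 lies between -0.91 and 0.14 in Glis3KO2 testes and between -5.23 and -3.28 in WT testes.

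Markers of the later germ cell stages moved with these chaperones at 4 weeks. Of the markers of meiotic prophase and pachytene spermatocytes, 5 of 5 were lower in Glis3KO2 testis. So were 5 of 5 of round spermatids and 5 of 5 of elongating spermatids. Of the markers of Sertoli cells, the somatic cells that nurse germ cells, 5 of 5 were higher. Among all genes 34.1% were called lower and 35.1% higher at this age. Markers of the earlier cells were mixed. Of 3 markers of undifferentiated spermatogonia tested, 2 were higher and 1 was lower (median log2 difference 0.48), and of 4 general germ cell markers 3 were lower and 1 did not pass (median -1.68). The mean log2 signal of the round spermatid markers was -0.45 to 1.09 on Glis3KO2 arrays and 2.63 to 2.82 on WT arrays. That of the Sertoli cell markers was 1.31 to 1.86 on Glis3KO2 arrays and -0.43 to -0.26 on WT arrays. In RNA from whole testis, fewer cells of a type and less RNA per cell cannot be told apart, and the part of these shifts in the differences of the chaperones was not tested.

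In WT testis all 10 genes were higher at 4 weeks than at 1 week, by 4.87 to 10.27 on the log2 scale (median 7.02), where 81.0% of all genes were called, 31.3% higher and 49.7% lower. Hspa2 was 5.72, 5.65 and 5.71 in the 4-week WT testes, against 0.78, 0.63, 0.59 and 0.38 in the 1-week WT testes, a 34.3-fold difference. Hspb9 was higher by 8.39 and Dnajc5b by 8.63. Dnajb7 was at background on all 8 arrays of 1 week, so its level at 4 weeks in WT was at least 711.2-fold higher, against the lowest signal that counts as measured. Its fitted difference of 10.27 rests on background values at 1 week, so only the bound describes its size. Dnajb13 was well above background on 1 of the 4 1-week WT arrays and on none of the 1-week Glis3KO2 arrays, and its fitted difference of 9.48 depends on the background correction, since it was 6.68 with the normexp method.

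The same genes had higher means in 4-week than in 1-week Glis3KO2 testis too, by 1.03 to 7.88 (median 4.59, not tested), the smallest being Dnajb8. The 4-week WT arrays enter both the comparison of genotypes and that of ages, so the values are set side by side and no relation between the 2 is drawn.

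The stress-inducible chaperones did not move as 1 group. Of the 7 genes, 3 were higher in 4-week Glis3KO2 testis (Hspb1, Hspa1a and Dnaja4) and 4 were lower (Bag3, Dnajb1, Hsp90aa1 and Hsp110), with a median of -0.59. Of all genes, 35.1% were called higher and 34.1% lower. Hspb1, the small heat shock protein Hsp27, had log2 signals of 5.24, 5.13 and 4.34 in 4-week Glis3KO2 testes, against 2.03, 2.0 and 1.96 in WT testes. The groups lay far apart, with a difference of 2.90 (SE 0.25, limma adjusted p = 0.00055), though the other probe of the gene, measured on 1 Glis3KO2 and 3 WT arrays, gave -2.56. Hspa1a, the classical inducible Hsp70, had 2.88, 2.89 and 2.04 in Glis3KO2 testes, against 0.49, 0.38 and 0.52 in WT testes. Its difference was 2.14 (SE 0.25, limma adjusted p = 0.00079), and its 3 other probes gave 2.17, 2.55 and 2.31. Hspa1b is a near-identical copy of Hspa1a, so the signal cannot be assigned to 1 of them.

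Bag3, a cochaperone induced with Hspa1a that guides clients to autophagy, went the other way. It had log2 signals of 1.04, 1.02 and 1.26 in 4-week Glis3KO2 testes, against 2.55, 2.79 and 2.65 in WT testes (log2 difference -1.56, SE 0.15, limma adjusted p = 0.00057). Dnajb1, the inducible Hsp40, had 4.86, 5.18 and 5.64 in Glis3KO2 testes, against 6.41, 6.60 and 6.48 in WT testes (log2 difference -1.27, SE 0.22, limma adjusted p = 0.0023). The groups of both genes were apart.

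Hsp90aa1, the inducible Hsp90 that male germ cells need for meiosis, had 6.60, 6.78 and 7.04 in Glis3KO2 testes, against 7.32, 7.54 and 7.45 in WT testes. It was lower, with a log2 difference of -0.63 (limma adjusted p = 0.013). Hsp110, an exchange factor for Hsp70, had 1.53, 2.01 and 2.06 in Glis3KO2 testes, against 2.46, 2.48 and 2.44 in WT testes. It was lower, with a log2 difference of -0.59 (limma adjusted p = 0.023). Neither gene's call held with quantile normalization, nor that of Hsp110 without any 1 of the WT replicates, nor that of Hsp90aa1 without WT replicate 2 or 3. Dnaja4, a DnaJ protein induced by heat, had -0.86, -1.16 and -1.19 in Glis3KO2 testes, against -1.47, -1.45 and -1.61 in WT testes (log2 difference 0.44, limma adjusted p = 0.038). That call was lost in 9 of 18 alternatives, among them the fits without WT replicate 1, 2 or 3 and without Glis3KO2 replicate 1 or 2, and the other probe of the gene gave -2.28.

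**Figure D3:**
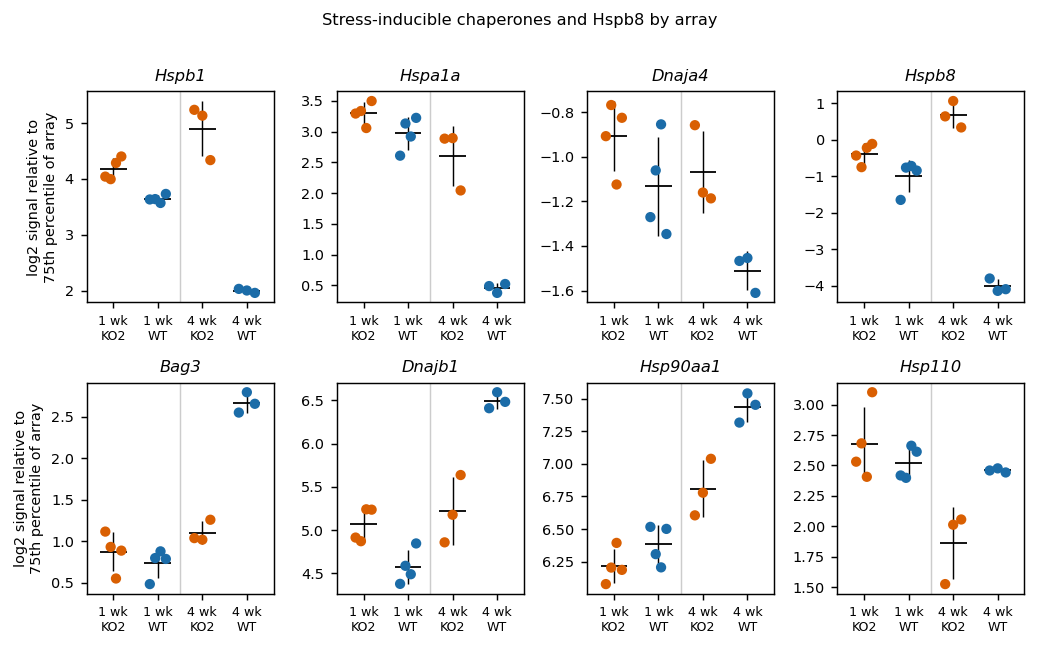
Log2 signal relative to the 75th percentile of the array (vertical axis) for the 7 stress-inducible chaperones and Hspb8 on the 14 arrays, with Glis3KO2 arrays in orange, WT arrays in blue, horizontal bars for means and vertical bars for SD. At 4 weeks Hspb1 lies between 4.34 and 5.24 in Glis3KO2 testes and between 1.96 and 2.03 in WT testes, while Bag3 and Dnajb1 lie lower in Glis3KO2 than in WT testes.

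With age in WT testis, 3 of the stress-inducible genes were higher and 3 lower, with a median of -0.06, where 31.3% of all genes were called higher and 49.7% lower. Bag3, Dnajb1 and Hsp90aa1 were higher at 4 weeks than at 1 week by 1.93, 1.92 and 1.05, whereas Hspa1a, Hspb1 and Dnaja4 were lower, with log2 differences of -2.51, -1.64 and -0.38. The call of Dnaja4 was lost in 7 of 17 alternatives, its other probe gave 5.01, and with the mean of all probes Dnaja4 and Hspb1 turned to 2.32 and 1.39. In Glis3KO2 testis the difference of the 7 genes between the ages ran from -0.81, for Hsp110, to 0.72 (not tested). Hspa1a, for example, had 0.49, 0.38 and 0.52 in the 4-week WT testes, against 2.61, 3.13, 2.92 and 3.22 in the 1-week WT testes. The 4-week Glis3KO2 values of Hspa1a given above overlapped with those of the 1-week WT arrays.

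Immediate early genes, which respond within minutes to handling and other stimuli, were also higher in 4-week Glis3KO2 testis. Of 7 such genes 6 were called higher, with a median log2 difference of 2.89, where 35.1% of all genes were called higher and 34.1% lower. The mean over the list was -0.09 to 0.34 on Glis3KO2 arrays and -2.96 to -2.88 on WT arrays. At 1 week the mean over the list was -0.96 to -0.46 on Glis3KO2 arrays and -0.73 to -0.56 on WT arrays. At 4 weeks, against the same shares of all genes, markers of macrophages were higher for 3 of 4 genes and those of peritubular cells for 2 of 3. Of 4 Leydig cell markers 1 was higher and 2 were lower. The part of these shifts in the differences of Hspb1 and Hspa1a was not tested.

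The stretches of DNA before the start sites of these genes are shown because heat shock factor 1 is known to bind inverted repeats of the bases GAA, called heat shock elements. Sequences are from RefSeq (GRCm38.p6), and 55 of the 68 members matched a promoter window of 250 bases before to 50 bases after a start site. The motif searched was GAANNTTC, which reads the same on both strands. It was found for 2442 of 27025 genes (9.04%), for 13 of the 55 members (23.6%), for 5 of the 6 stress-inducible genes that matched (83.3%), for 3 of 4 small heat shock proteins outside that list (75%), for 2 of 5 mitochondrial chaperones (40%) and for 1 of the 9 germ cell chaperones that matched (11.1%). The longer motif GAANNTTCNNGAA, which contains the shorter one and was searched on both strands, was found for 0.662% of genes and for 4 members, Hspd1, Hspe1, Dnajb6 and Hsph1 (Hsp110). The matches of Hspd1 and Hspe1, the 2 mitochondrial genes, lie on the same bases, read from opposite strands. That stretch is thus counted for both genes. A match is a match of letters and says nothing about binding.

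Hspb1 (chr5:135887669-135887918, plus strand) and Hspa1a (chr17:34972157-34972406, minus strand) are the stress-inducible genes with the largest log2 differences at 4 weeks. Hspa1l (chr17:34972453-34972702, plus strand) is the neighbour of Hspa1a. It is transcribed away from it, with 547 bases between the start sites, and went in the opposite direction in 4-week Glis3KO2 testis. Each line gives the 250 bases before the start site, 5′ to 3′, with matches to GAANNTTC in capitals.
Hspb1: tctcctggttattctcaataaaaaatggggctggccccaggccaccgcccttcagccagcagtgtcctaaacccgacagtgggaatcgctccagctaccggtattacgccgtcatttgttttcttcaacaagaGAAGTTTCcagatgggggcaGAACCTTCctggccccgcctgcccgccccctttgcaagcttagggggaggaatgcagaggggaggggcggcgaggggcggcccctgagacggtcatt
Hspa1a: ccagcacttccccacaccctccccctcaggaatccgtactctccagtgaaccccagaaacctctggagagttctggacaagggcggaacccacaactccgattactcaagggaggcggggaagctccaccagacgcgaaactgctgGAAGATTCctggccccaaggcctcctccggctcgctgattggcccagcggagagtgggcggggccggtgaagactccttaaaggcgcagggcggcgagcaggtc
Hspa1l: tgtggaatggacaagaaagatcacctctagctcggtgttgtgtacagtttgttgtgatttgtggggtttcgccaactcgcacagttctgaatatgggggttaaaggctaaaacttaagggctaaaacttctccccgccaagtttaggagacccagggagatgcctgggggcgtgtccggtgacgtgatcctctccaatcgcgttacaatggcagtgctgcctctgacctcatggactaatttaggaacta

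Hspb1 has a pair of such matches, Hspa1a has 1 and Hspa1l has none in these letters. Bag3, Dnaja4 and Hsp110 also have a match in their windows, and Dnajb1 has none, so genes with a match are found among those called higher and among those called lower.

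The small heat shock proteins outside these lists are best known from muscle and heart. Hspb8, which works with Bag3, had the largest difference of all members at 4 weeks. Its log2 signals were 0.64, 1.06 and 0.33 in 4-week Glis3KO2 testes, against -3.80, -4.13 and -4.09 in WT testes. The groups were far apart, with a difference of 4.68 (25.7-fold, SE 0.22, limma adjusted p = 0.00044), and slides 4 and 5 gave 4.79 and 4.47. In WT testis Hspb8 was lower at 4 weeks than at 1 week by -3.01 (limma adjusted p = 2.0e-05). At 1 week it had -0.43, -0.75, -0.22 and -0.12 in Glis3KO2 testes and -1.65, -0.76, -0.72 and -0.84 in WT testes, which did not pass the test (log2 difference 0.61, limma adjusted p = 0.11).

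The start of Hspb8 (chr5:116422845-116422964, minus strand, 100 bases before and 20 after the start site) has a match to GAANNTTC just after the start site, shown in capitals.
Hspb8: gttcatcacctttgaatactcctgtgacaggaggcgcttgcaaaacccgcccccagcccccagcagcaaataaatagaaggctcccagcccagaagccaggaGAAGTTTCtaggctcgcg

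Hspb2 had -1.29, -1.37 and -1.74 in 4-week Glis3KO2 testes, against -2.71, -2.69 and -2.91 in WT testes, and was higher by 1.31 (limma adjusted p = 0.001). Hspb6 (Hsp20) had -3.79, -3.57 and -2.77 in Glis3KO2 testes, against -2.20, -2.31 and -2.23 in WT testes, and was lower, with a log2 difference of -1.13 (limma adjusted p = 0.0084). Hspb7 had a log2 difference of -0.36 that did not pass the test. Hspb3 was not tested at this age, because it was well above background on none of the 3 Glis3KO2 arrays and on only 1 of the 3 WT arrays.

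Among the Hsp70, Hsp90 and DnaJ proteins of the cytosol, 2 of 11 were higher and 7 lower in 4-week Glis3KO2 testis, against 35.1% and 34.1% of all genes. Hsp90ab1, the Hsp90 made at all times, had 5.37, 5.26 and 4.82 in Glis3KO2 testes, against 3.74, 3.75 and 3.70 in WT testes (log2 difference 1.42, SE 0.18, limma adjusted p = 0.00095). Hsp90aa1, its inducible relative, was lower at this age, as given above. Hspa8, the constitutive Hsp70, had 5.57, 5.76 and 5.44 in Glis3KO2 testes, against 4.59, 4.48 and 4.56 in WT testes (log2 difference 1.05, SE 0.15, limma adjusted p = 0.0012). Both probes named Hspa8 are placed on chromosome 5 by the array annotation while RefSeq has the gene on chromosome 9, so signal from a near-identical copy elsewhere cannot be told apart and the value is uncertain.

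The cytosolic DnaJ genes went down or did not pass the test. Dnajb6, which keeps proteins from aggregating, had 2.47, 2.68 and 3.37 in 4-week Glis3KO2 testes, against 4.21, 4.46 and 4.23 in WT testes (log2 difference -1.46, limma adjusted p = 0.0023). Lower too were Dnajb10 (Dnajb2), Dnajb5, Dnajb4, Dnaja1 and Dnaja2, with log2 differences of -1.35, -0.85, -0.70, -0.55 and -0.34. Hspa4, an exchange factor of the Hsp110 family, was lower, with a log2 difference of -0.66, whereas Dnajc7 and Hspa14 had differences of -0.09 and 0.33 that did not pass. Both other probes of Dnaja1 gave differences above 0 (0.48 and 0.27), so its direction depends on the probe. Dnajb4 had 1 other probe at -1.76 and 2 dimmer ones at 0.46 and 0.52, and Hspa4 had other probes at -0.59 and -0.77 and its dimmest one at 0.53. The calls of Dnaja1 and Dnaja2 were lost in 7 and 12 of 18 alternatives.

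In WT testis 6 of these 11 genes were higher at 4 weeks than at 1 week and 3 were lower. Of all genes, 81.0% were called, 31.3% higher and 49.7% lower. Dnajb6 was higher by 3.27 and Dnajb10 by 3.49, while Hsp90ab1 and Hspa8 were lower (log2 differences of -2.21 and -1.80).

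Of the 10 chaperones of the endoplasmic reticulum, where secreted and membrane proteins fold, 2 were higher and 4 lower in 4-week Glis3KO2 testis. Of all genes, 35.1% were called higher and 34.1% lower. Hspa5 (BiP), the Hsp70 of this compartment, had 4.65, 4.90 and 5.09 in Glis3KO2 testes, against 5.36, 5.28 and 5.30 in WT testes, and was lower, with a log2 difference of -0.44 (limma adjusted p = 0.046). Its partners Dnajb11 and Dnajc3 were lower, with log2 differences of -0.58 and -0.47, and Dnajb12 and Dnajc1 were higher by 0.81 and 0.59. The other probe of Dnajb12 gave -0.17. Dnajc1 had 2 other probes at 0.58 each and a dim one at -0.64 that was well above background on 1 Glis3KO2 and 2 WT arrays. The call of Hspa5 was lost in 9 of 18 alternatives and its value was 0.0046 with quantile normalization, and that of Dnajc3 was lost in 6 of 18. Hsp90b1 (Grp94), Dnajb9, Dnajc10 and Dnajc16 had differences of -0.22, -0.24, 0.17 and -0.03 that did not pass the test. Other probes gave -0.26 for Hsp90b1, -0.48 and -2.01 for Dnajb9, and -0.68, 0.09 and -0.39 for Dnajc10. Those of Dnajc16 gave -0.44, 1.05 and 0.88. The values of Dnajb9, Dnajc10 and Dnajc16 thus depend on the probe, and these genes cannot be called unchanged. The largest difference in this list was that of Dnajc18, a membrane DnaJ protein, with 2.33, 2.36 and 3.49 in Glis3KO2 testes, against 4.77, 4.99 and 4.93 in WT testes (log2 difference -2.17, SE 0.32, limma adjusted p = 0.0014). In WT testis it was higher by 3.85 at 4 weeks than at 1 week.

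Of the 7 mitochondrial chaperones 2 were higher, 1 was lower and 4 did not pass, where 35.1% of all genes were higher and 34.1% lower. Hspd1 (Hsp60), the chaperonin of mitochondria, had 4.59, 4.73 and 4.23 in 4-week Glis3KO2 testes, against 3.46, 3.32 and 3.35 in WT testes (log2 difference 1.14, limma adjusted p = 0.0016). Hspe1 (Hsp10), the lid of that chaperonin, had 3.20, 3.34 and 2.84 in Glis3KO2 testes, against 2.54, 2.54 and 2.42 in WT testes (log2 difference 0.62, limma adjusted p = 0.016). The pair was also lower with age in WT testis, by -1.61 and -1.67. Dnajc15, a DnaJ protein of the inner membrane, had 4.62, 5.0 and 5.36 in Glis3KO2 testes, against 6.14, 6.26 and 6.26 in WT testes (log2 difference -1.22). Hspa9a (mortalin), the Hsp70 of mitochondria, had a difference of -0.01 that did not pass, and its other probe gave -0.81.

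Hspd1 and Hspe1 lie head to head and are known to share a promoter. The 120 bases before the start site of Hspe1 (chr1:55088028-55088147, plus strand) hold overlapping matches to GAANNTTC and TTCNNGAA, shown in capitals, which make up the longer motif GAANNTTCNNGAA. TTCNNGAA, which reads the same on both strands, was found for 9.60% of genes.
Hspe1: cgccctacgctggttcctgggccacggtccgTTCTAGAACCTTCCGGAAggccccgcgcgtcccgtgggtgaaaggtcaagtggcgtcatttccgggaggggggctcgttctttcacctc

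Of 5 genes listed as BAG cochaperones and exchange factors 1 was higher and 3 were lower at 4 weeks, against 35.1% and 34.1% of all genes. Among the lower ones, Hspbap1 is in the list by its name and is neither a BAG protein nor a known exchange factor. Bag2, which restrains the ubiquitin ligase CHIP, had 1.51, 1.73 and 1.16 in Glis3KO2 testes, against -0.20, -0.39 and -0.24 in WT testes (log2 difference 1.75, SE 0.19, limma adjusted p = 0.00066). Bag5 had 4.13, 4.30 and 5.30 in Glis3KO2 testes, against 6.27, 6.55 and 6.41 in WT testes (log2 difference -1.84, SE 0.31, limma adjusted p = 0.0022). Bag4 and Hspbap1 were lower, with log2 differences of -1.01 and -0.75, with another probe of Bag4 at 0.63, and Bag1 at -0.29 did not pass. In WT testis Bag5 was higher by 4.39 at 4 weeks than at 1 week and Bag2 was lower, with a log2 difference of -1.25.

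Dnajc5, the cysteine string protein of synaptic and secretory vesicles, had 3.22, 3.10 and 2.50 in 4-week Glis3KO2 testes, against 1.29, 1.20 and 1.28 in WT testes (log2 difference 1.68, SE 0.21, limma adjusted p = 0.00093). The other probes of Dnajc5 gave 1.79 and, for the dimmest, 0.07, so the size of its difference depends on the probe. The testis relatives of Dnajc5, Dnajc5b and Dnajc5g, went in the direction opposite to that of its brightest probe, as given above. The other vesicle DnaJ genes, Dnajc6 (auxilin) and Dnajc13, had differences of 0.04 and 0.13 that did not pass the test.

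Of the 10 members in no list, 2 were higher and 3 lower at 4 weeks, against 35.1% and 34.1% of all genes. Dnajc2, which binds ribosomes, had 1.60, 1.52 and 2.25 in 4-week Glis3KO2 testes, against 3.42, 3.49 and 3.45 in WT testes (log2 difference -1.67, limma adjusted p = 0.001). Dnajc4 was lower, with a log2 difference of -1.53. Hspa12a, a distant relative of Hsp70, was lower, with a log2 difference of -1.90, with 0.28, 0.51 and 1.54 in Glis3KO2 testes, against 2.66, 2.64 and 2.74 in WT testes. Its other probes gave smaller differences of -0.63, -0.55 and -0.50. Dnajc12 and Hspc171 were higher by 0.70 and 0.65. With age in WT testis Hspa12a was higher by 4.83 by its brightest probe, while its 3 other probes gave -0.79 to -1.12.

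At 1 week the largest difference among the members was that of Dnajb8. It had log2 signals of -0.68, -0.91, 0.14 and -0.27 in 1-week Glis3KO2 testes, against -3.28, -5.23, -4.14 and -3.72 in WT testes. The groups were far apart, with a difference of 3.66 (SE 0.42, limma adjusted p = 0.0051), in the opposite direction to that at 4 weeks. Dnajb8 has a single probe, which lies on the plus strand (chr6:88298223-88298282, mm7). Bases 31 to 60 of the probe are shown, because the 8 bases in capitals match the telomeric repeat CCCTAA, read from 1 of its 6 positions.
Dnajb8 probe: acaagtgacagccaCCTAACCCatccctgg

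Each probe was scored against that repeat, with 1 point for a matching base and 1 point off for a mismatch along the best stretch, which gives 8 for Dnajb8. Of the 314 tested genes whose probe scored 8 or more, 76 were called higher in 1-week Glis3KO2 testis (24.2%), against 3.59% of the 21736 genes whose probe scored under 7. The median log2 difference of the 314 genes was 0.16. The part of the repeat in the difference of Dnajb8 was not tested. Dnajb3 and Hspa4l, whose probes scored 7, had differences of -0.57 and -0.67 at this age that did not pass the test.

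Hspb3, a small heat shock protein of muscle, was the other member with a large difference at 1 week. It had -6.90, -7.14, -6.03 and -7.07 in Glis3KO2 testes, against -4.48, -4.04, -4.35 and -4.10 in WT testes (log2 difference -2.54, SE 0.25, limma adjusted p = 0.0034). It was well above background on 2 of the 4 Glis3KO2 arrays, and with the normexp background correction the difference was -0.84. Hspb1 had 4.04, 4.00, 4.29 and 4.40 in 1-week Glis3KO2 testes, against 3.63, 3.64, 3.57 and 3.73 in WT testes (log2 difference 0.54, SE 0.13, limma adjusted p = 0.041). Hspa12a had -3.02, -3.05, -2.57 and -2.99 in Glis3KO2 testes, against -2.04, -2.36, -2.32 and -1.89 in WT testes (log2 difference -0.76, SE 0.16, limma adjusted p = 0.036). The other probes of Hspa12a gave smaller differences at this age, of -0.00046, -0.36 and -0.28, so its size depends on the probe. In all 4 genes the groups did not overlap, which held for 24 of the 66 members, 17 higher and 7 lower, against 15.3% and 12.0% of all genes.

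The calls of Hspb1 and Hspa12a at 1 week were each lost in 14 of 21 alternatives, and those of Dnajb8 and Hspb3 in 2 of 20. Without WT replicate 1, 2 or 3, or without Glis3KO2 replicate 1 or 4, 1 member was called higher and 1 lower. Without WT replicate 4 there were 4 and 4, and without Glis3KO2 replicate 3 there were 1 and 6. The scale of the arrays also matters at this age. Scaling to the median in place of the 75th percentile shifted the median of all genes by 0.26 and turned the split of all calls from 38.9% higher to 74.0% higher, with 13 members called higher and 1 lower.

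The other 7 germ cell chaperones tested at 1 week had differences from -1.06 for Dnajc5g to 0.24 for Hspa1l, with limma adjusted p-values from 0.060 upwards, and the median of the 8 tested was -0.47. Of these 7, Dnajb3 was called in 1 of 20 alternatives (-0.79 without Glis3KO2 replicate 3, limma adjusted p = 0.025), Dnajc5b in 1 of 20, Hspb9 in 1 of 21 and Dnajc5g in 3 of 21. Of the stress-inducible genes, 6 did not pass, among them Hspa1a with 3.29, 3.33, 3.06 and 3.50 in Glis3KO2 testes, against 2.61, 3.13, 2.92 and 3.22 in WT testes (log2 difference 0.32, limma adjusted p = 0.19). Dnajb1 was called in 3 of 21 alternatives. At this age 3.90% of all genes were called higher and 6.14% lower in Glis3KO2 testis. Lower were 3 of 4 markers of undifferentiated spermatogonia, 1 of 4 general germ cell markers and 1 of 3 markers of round spermatids tested. Of 5 markers of meiotic prophase and pachytene spermatocytes 2 were lower and 1 was higher. Higher were also 2 of 5 markers of Sertoli cells, 2 of 4 of Leydig cells and 1 of 4 of macrophages. The mean log2 signal of the round spermatid markers was -6.38 to -5.47 on 1-week Glis3KO2 arrays and -5.90 to -5.10 on 1-week WT arrays. Which cells gave these low signals was not tested. No marker of elongating spermatids (4 tested) or of peritubular cells (3 tested) passed limma's test at an adjusted p under 0.05, and at an unadjusted p under 0.05 there were 1 and 0. The medians of the 2 lists were -0.52 and 0.09, and the part of these shifts in the members' differences was not tested.

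Whether the genotype acted differently at the 2 ages was tested with the interaction term of a fit of all 14 arrays. The difference between the genotype effects (4 weeks minus 1 week) was called above 0 for 12 of 68 members and below 0 for 24, where 51.0% of all genes were called, 29.3% above 0 and 21.6% below. It was below 0 for 9 of the 10 germ cell chaperones, from -6.94 for Dnajb8 to -1.29 for Hspa4l, with Dnajc5g (-1.18, limma adjusted p = 0.091, called in 6 of 24 alternatives) as the exception. For 2 of the 9 the 1-week side is background, since Dnajb7 was well above background on none of the 8 1-week arrays and Dnajb13 on 1 of the 8. The calls of Dnajb13 and Hspa4l were each lost in 8 of 23 alternatives, 8 and 7 of them with 1 array left out, and that of Hspa2 in 1 of 24. It was above 0 for Hspb8 (4.07, limma adjusted p = 1.3e-05), Hspb1 (2.36) and Hspa1a (1.82), and below 0 for Dnajb1 (-1.76), Bag3 (-1.69) and Hsp110 (-0.75), whose call was lost in 4 of 24. Hspb1 was at -0.19 with the mean of all probes. Hsp90aa1 (-0.46) and Dnaja4 (0.21) did not pass. The balance of the 2 directions depends on the scale of the arrays. Median scaling gave 9 members above 0 and 36 below, and put 42.1% of all calls above 0 in place of 57.6%, while the median of the members was -0.40 as reported, -0.74 with median scaling and 0.05 with quantile normalization. The interaction uses the same arrays as the other comparisons and is not separate evidence of their directions.

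Over all members, WT testis had 33 genes higher and 25 lower at 4 weeks than at 1 week, with a median of 0.16, where the median of all genes was -0.51. Of all genes, 31.3% were called higher and 49.7% lower. The ages did not overlap for 35 members that lay higher and 25 that lay lower at 4 weeks, against 31.8% and 49.0% of all genes. With quantile normalization the median of the members was -0.03 for this comparison and -0.06 for the genotypes at 1 week, so the sign of both medians depends on the scaling. At 4 weeks it kept its sign, with -0.16.

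Genes that work with the chaperones were also measured. The counts at 4 weeks stand against 35.1% of all genes called higher and 34.1% called lower. Of 6 heat shock factors and their regulators tested at 4 weeks, 5 were lower in Glis3KO2 testis, among them Hsf2 (-2.55), Hsfy2 (-2.80) and Hsbp1 (-0.89), while Hsf1, the main activator of the heat shock response, had a difference of 0.25 that did not pass (limma adjusted p = 0.18). Of 9 subunits of the TRiC chaperonin, which folds actin and tubulin, 8 were lower, among them Cct7 (-1.26), Cct5 (-0.88) and the testis subunit Cct6b (-1.83). Of 15 Hsp90 cochaperones and other folding partners, 5 were higher and 4 lower, with Fkbp5, an immunophilin induced by glucocorticoids, at 1.90, Unc45a at 1.11 and Ptges3 (p23) at -0.86.

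Of 16 genes of folding in the endoplasmic reticulum and its unfolded protein response, 4 were higher and 6 lower, against 35.1% and 34.1% of all genes. Xbp1, a transcription factor of that response, was higher by 2.10, and Sdf2l1 was lower, with a log2 difference of -1.83. Calr3 and Pdilt, testis forms of calreticulin and of protein disulfide isomerase (Pdilt is named 1700007B13Rik on the array), were lower, with log2 differences of -3.20 and -2.63. Of 6 other stress proteins 4 were higher and 2 lower, with Cryab, a small heat shock protein of lens and muscle, at 1.93, Hmox1 (heme oxygenase) at 1.39 and Odf1, a protein of the sperm tail, at -2.95.

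At 1 week 3 genes of these lists were called, where 10.0% of all genes were. Of 9 TRiC subunits tested 1 was lower, and of 16 endoplasmic reticulum genes 1 was higher and 1 lower. None passed among 6 heat shock factors and regulators, 15 Hsp90 cochaperones and folding partners and 5 other stress proteins. At an unadjusted limma p under 0.05 there were 3, 4 and 2 in the same order. The medians were -0.58, 0.14 and 0.27, so these lists cannot be called unchanged. Cct8 (-0.58) and Clgn, a testis chaperone of the endoplasmic reticulum (-1.78), were lower and Herpud1 (0.53) was higher. The calls of Cct8, Herpud1 and Clgn were lost in 11, 12 and 12 of 21 alternatives.

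With age in WT testis the testis forms in these lists rose: Gm739 (Hsf5) by 9.06, Calr3 by 6.67 and Cct6b by 2.60, all well above background on every 1-week WT array. Odf1 was at background on all 1-week WT arrays, so its 4-week WT level was at least 206-fold higher. Its fitted difference of 9.30 rests on background values at 1 week. Hsfy2 was well above background on 1 of the 4 1-week WT arrays and 1700007B13Rik (Pdilt) on 2 of the 4. Their fitted differences of 11 and 10.67 rest partly on background values, and ran from 7.74 to 11.33 and from 8.49 to 10.83 over the alternatives. Tcp1 and Cct4 of the TRiC chaperonin were higher by 2.23 and 1.31, although the mean over all probes of Cct4 was -0.17. St13 and Ptges3, from the list of Hsp90 cochaperones and folding partners, were higher by 1.17 and 1.06, and Hsbp1 and Ddit3 by 1.73 and 2.56. Serpinh1, the collagen chaperone Hsp47, Fkbp5 and Grpel2, an exchange factor of mitochondria, were lower, with log2 differences of -3.31, -2.0 and -1.81.

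Probes of the same gene did not always give the same direction. A probe counts here as measured where 3 arrays of either genotype at 4 weeks had it well above background. At that age 39 members had another measured probe, 62 such probes in all, and 14 of these had the opposite sign to the brightest one. Of 26 called members with another measured probe, 7 had at least 1 with the opposite sign, namely Bag4, Dnaja1, Dnaja4, Dnajb12, Dnajb4, Hspa4 and Hspb1. The other probe of Hspb1 gave -2.56, was well above background on 1 Glis3KO2 array and 3 WT arrays, and is placed on chromosome 13 by the array annotation, while Hspb1 lies on chromosome 5. With the mean of all probes Hspb1 had a difference of 0.17 that did not pass (limma adjusted p = 0.34), and Dnaja4 turned to -0.92.

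**Figure D4:**
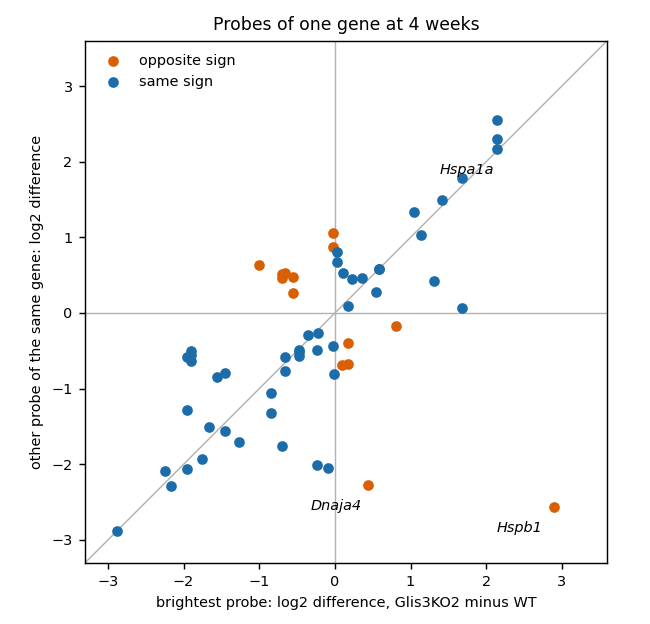
Log2 difference between 4-week Glis3KO2 and WT testis by the brightest probe of a member (horizontal axis) and by each of its other measured probes (vertical axis), for 62 other probes of 39 genes. Orange points have opposite signs, and the diagonal marks equal values; the 3 other probes of Hspa1a lie near the diagonal, and those of Hspb1 and Dnaja4 lie far below it.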

How the data were processed

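Total RNA of 14 mouse testis samples was labelled with Cy3 and hybridised to 1-colour arrays, per the labels, and Agilent Feature Extraction 9.5 is named as the scan software per the submitters' processing notes. Per the file headers, the deposited values are intensity values: the processed intensity has the background subtracted, with no step between arrays, and was used in the main setting, and the mean and background intensity were used for normexp. Flags of 0 or 1 in the deposited files mark non-uniform spots (left out) and spots well above background. The position of each probe is that of the mm7 annotation in the files.

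Log2 of the processed intensity was averaged over the spots of a probe, and from each array the 75th percentile of its non-control probes was taken away. To be tested in a comparison, a gene's probe had to be well above background on 3 or more arrays of 1 of the groups. The test was limma (3.58.1, R 4.3.3) on the whole table with Benjamini-Hochberg adjustment. The genotypes at each age and the ages of WT were fitted apart, and the interaction in a fit of all 14 arrays. A gene was called at an adjusted p under 0.05. Tables were made with Python 3.11.15 and pandas 2.3.3. The number of arrays limits the precision. On simulated data with known answers, limma recovered 86% of genes changed by 2 on the log2 scale at 1 week, 75% at 4 weeks, 89% between the ages and 52% for the interaction, and 39%, 30%, 63% and 10% of those changed by 1. Each simulation changed 100 genes of each size among 21338 to 23763 genes. Far more genes were called in the data, and the adjustment depends on that share. These values therefore do not give the power of the fits reported here.

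Members and lists were chosen with earlier results of these data known, so no list was tested. The genes named are all germ cell and stress-inducible chaperones, in each comparison the 4 other called members with the largest difference in each direction that were above background in both groups, up to 2 with 1 group at background, up to 3 called genes of each other proteostasis list, and Glis3. Further members were named after their values were seen, to account for every list. The values were recomputed with quantile normalization, median scaling, normexp (offset 50), the filter dropped or asked of every array, the mean over a gene's probes, an intensity trend with robust fitting, replicate or slide as a block, single slides, a single fit of all arrays, no probes with telomeric repeat letters, and leaving out each array. Same-numbered samples showed no sign of deviating together (correlations of -0.17, -0.13, 0.02 and 0.16 at 1 week and of 0.14, -0.31 and 0.07 at 4 weeks). So few samples cannot exclude a pairing, and the main fits did not pair samples by number.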

Additional observations from a re-analysis of the deposited data

Results flagged for a closer look

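In 136 groups of 4 samples tested with Dixon's ratio, 2 for each of the 68 members, 11 had 1 array far from the others, and chance alone gives about 1 in 20. Among 1-week Glis3KO2 arrays, replicate 3 was high for Bag1 (3.70, the other three at 3.01 to 3.05), Hspe1 (4.81, the others at 3.85 to 3.95) and Hspa12a (-2.57, the others at -3.05 to -2.99), and low for Dnajc1 (1.74, the others at 2.27 to 2.31). Replicate 4 of that group was high for Hsp90b1 (5.92, the others at 5.30 to 5.39) and Dnajb12 (1.61, the others at 1.34 to 1.37), and low for Dnajc2 (-0.19, the others at 0.87 to 1.04). Among 1-week WT arrays, replicate 1 was high for Dnaja1 (4.42, the others at 4.23 to 4.25) and low for Hspb8 (-1.65, the others at -0.84 to -0.72), and replicate 4 was low for Dnajb5 (-3.60, the others at -3.21 to -3.19) and Dnajc13 (-0.24, the others at 0.13 to 0.20).

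For 36 of the 68 members the genotype effect differed between the ages by the interaction term of limma. Among all genes 51.0% were called for this term. The difference is given here as the log2 effect at 4 weeks minus that at 1 week. Among germ cell chaperones it was -6.94 for Dnajb8, -3.15 for Dnajb7, -3.14 for Hspa1l, -2.08 for Dnajc5b, -2.06 for Hspb9, -1.61 for Dnajb13, -1.61 for Dnajb3, -1.38 for Hspa2 and -1.29 for Hspa4l. Among stress-inducible chaperones it was 2.36 for Hspb1, 1.82 for Hspa1a, -0.75 for Hsp110, -1.69 for Bag3 and -1.76 for Dnajb1. Small heat shock proteins gave 4.07 for Hspb8, -1.48 for Hspb6 and 2.79 for Hspb3. Hspb3 was well above background at 4 weeks on none of the 3 Glis3KO2 arrays and on 1 of the 3 WT arrays, and with the normexp correction its value was 1.07, so its size is not settled by these arrays. Of the others, Dnajc5 gave 1.61, Bag2 1.36, Hsp90ab1 1.22, Hspa8 1.01, Hspd1 0.95, Dnajc13 0.65, Dnajb12 0.65 and Dnajc1 0.62. Bag4 gave -0.66, Dnajb11 -0.66, Dnajb4 -0.72, Dnajb5 -0.74, Hspa12a -1.15, Dnajb10 -1.76, Dnajb6 -1.78, Dnajc15 -1.91, Dnajc4 -2.0, Bag5 -2.31 and Dnajc18 -2.54.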

How the results depend on the processing

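At 1 week the count of members called depended on the setting, and the cause was not tested. The number higher (2 in the report) was 13 with median scaling, 10 with an intensity trend, 5 with the filter on all arrays, 5 with one fit of all arrays, 1 with no filter, the mean of all probes, the replicate block, the slide block or without repeat probes, 0 on slide 1 only and 0 on slide 2 only, and 1 to 4 when an array was left out. The number lower (2 in the report) was 1 with median scaling, no filter, the mean of all probes, the replicate block or the slide block, 4 with normexp, 5 with the filter on all arrays, 6 with the trend, 6 with one fit, 0 on each single slide, and 1 to 6 when an array was left out. At an unadjusted p under 0.05 there were 16 higher and 10 lower over all arrays, 3 and 4 on slide 1, and 1 and 2 on slide 2. Leaving out an array gave 12 to 18 members higher and 27 to 34 lower at 4 weeks, and 10 to 14 and 20 to 27 for the interaction. The replicate block gave 14 higher and 29 lower at 4 weeks, 33 and 23 between the ages, and 12 and 24 for the interaction.

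The median of the germ cell chaperones was -0.21 at 1 week with median scaling, -2.92 at 4 weeks on slide 4 only, and -3.00 to -2.23 when an array was left out. Between the ages it was 6.25 with normexp, 5.99 with the filter on all arrays, 5.74 with the mean of probes, 8.39 without repeat probes and 6.82 to 7.19 when an array was left out, and for the interaction -2.45 with normexp. The median of the stress-inducible chaperones was 0.48 at 1 week with median scaling and -0.38 at 4 weeks with quantile normalization. Between the ages it was 0.070, -0.29 and 1.39 with median scaling, quantile normalization and the mean of probes, and for the interaction -0.80, 0.061 and -0.75. The mean of all probes turned the sign of Dnaja4 at 4 weeks (-0.92), between the ages (2.32) and for the interaction (-1.05), of Dnaja1 (0.067) and Dnajc16 (0.37) at 4 weeks, of Hspb1 between the ages (1.39) and for the interaction (-0.19), of Dnajb4 for the interaction (0.18), and between the ages of Cct4 (-0.17), Bag4 (-0.25), Dnaja1 (-0.35), Dnaja3 (0.054), Dnajb12 (0.083) and Hspa4 (-0.46). Quantile normalization turned Hspa5 at 4 weeks (0.0046) and, between the ages, Bag1 (-0.030), Dnaja1 (-0.38), Dnajb11 (-0.031), Hsp90b1 (-0.47) and Hspa9a (-0.32). Of the members' calls, 34 of 48 at 4 weeks, 45 of 58 between the ages, 24 of 36 for the interaction and 0 of 4 at 1 week held under every alternative run. Of members not called, 10 of 19, 8 of 10, 22 of 32 and 19 of 62 in the same order were called under at least 1. Probes near background (Dnajb7, Dnajb13, Hsfy2, Odf1 and 1700007B13Rik at 1 week, Hspb3 at both ages) limit how large their differences can be said to be.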
